A study of Homo sapiens with 8 samples.

Results

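Cells commit to mitochondrial apoptosis through the BCL2 family, and the RNA of 10 of its genes was compared in medulloblastoma cells with and without induction of a MYC inhibitor. The 10 genes are the prosurvival members BCL2, BCL2L1 and MCL1, the effectors BAX and BAK1, and the BH3-only members BCL2L11, BBC3, PMAIP1, BID and BAD. They were chosen by their symbols and matched through GENCODE to the Ensembl identifiers of the 60668 genes listed per library. The rule uses no measured value, but the choice was made with earlier results of these data known. RNA-Seq libraries had been made from D283-OMO cells, the medulloblastoma line D283 Med carrying a doxycycline-inducible, Flag-tagged OMOMYC transgene. OMOMYC is a mini-protein derived from MYC that acts as a dominant negative by binding MYC's partner and its DNA sites. The study sequenced 4 untreated libraries (OMO) and 4 libraries of cells treated with doxycycline (DOX) for 72 h (OMO+DOX), which it describes as biological replicates.

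Both groups carry the lentiviral transgene and had been selected with hygromycin, and whether the line is a single clone is not given in the sources used here. No library of DOX-treated cells without the transgene was analysed here, so an effect of DOX itself cannot be told apart from that of OMOMYC. The libraries hold 46592947 to 54020506 counts (untreated) and 38390696 to 49249167 counts (DOX), and a gene at 3 counts would stand at 0.0579 to 0.0746 CPM (counts scaled to a common library size), a limit that covers counting error only. Of the markers of group 3 and photoreceptor-like tumours, OTX2, CRX, NRL, NPR3 and IMPG2 were all present, OTX2 at a mean of 1046 CPM in untreated and 508 CPM in DOX-treated cells. The defining markers of leukocytes (PTPRC, CD3E) averaged at most 0.0661 CPM, and those of astrocytes (GFAP, AQP4) at most 0.293 CPM. Of the endothelial markers, PECAM1 averaged at most 0.031 CPM, whereas CDH5 was at 0 in every untreated library and at 1.52 to 2.07 CPM with DOX. Of the fibroblast markers, COL1A1 stood at 22.1 and 23.4 CPM and COL1A2 at 0.223 and 0.011 CPM, and the hepatocyte marker ALB at 0.336 and 0.786 CPM. The neural markers NES and SOX11 stood at 59.6 and 22.3 CPM in untreated and at 224 and 114 CPM in DOX-treated cells, TUBB3 at 1.85 and 3.07 CPM, and STMN2 at means of 0.175 CPM or less in both groups. Photoreceptor and neural markers thus moved with DOX (CRX from 126 to 20.9 CPM), and their part in the results was not tested. Untreated replicate 3 stood apart from its group. A chi-square of its counts against the other untreated libraries came to 32.7 to 48.2 per degree of freedom, against 3.8 to 7.83 among the other untreated pairs.

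BCL2, BCL-XL (the main product of BCL2L1) and MCL1 keep cells alive by binding the other family members at the mitochondrial outer membrane. BAX and BAK1 form the pores through which cytochrome c escapes, after which caspases are activated. BH3-only proteins sense stress and either occupy the prosurvival proteins or act on BAX and BAK1 directly, each with its own preferred partners. High MYC activity is known to sensitise cells to apoptosis, and the balance among these proteins is a known determinant of drug response in tumours. RNA was measured here, and protein, phosphorylation and cleavage, by which several of these genes are regulated, were not.

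MYC and its partner MAX bind the E-box CACGTG, which is why that sequence was looked up upstream of the members. RefSeq (GRCh38.p14) gave promoters for 9 of the 10 genes in 15 windows, and MCL1 had no entry. In the 250 bases before the annotated starts, CACGTG was found for BAX, BBC3 and BID, and BAX held 4 copies. The sequence reads alike on both strands, so each copy was counted once. Of all 35116 promoter windows of the same length, 2228 (6.34%) held at least 1 copy, 188 (0.535%) at least 2 and 5 (0.0142%) at least 4. These are shares of windows, not of genes, since a gene such as BID can have several overlapping windows. The BAX sites are shown because they are the densest cluster among the members, and the others for comparison, each with its neighbouring bases, from 5′ to 3′ on the strand of the gene and with the E-box in capitals.
BAX, chr19:48954725-48954754, plus strand, E-box from 138 bases before the start: tcattggacagtCACGTGacgggaccaaac
BAX, chr19:48954770-48954799, plus strand, from 93 bases before: ggcaggtgcggtCACGTGacccggcggcgc
BAX, chr19:48954818-48954847, plus strand, from 45 bases before: ttgcggggcggcCACGTGaaggacgcacgt
BAX, chr19:48954849-48954874, plus strand, from 14 bases before: cagcggggctctCACGTGacccgggc
BBC3, chr19:47232882-47232911, minus strand, from 232 bases before: atggggagatttCACGTGagatatagatta
BID, chr22:17774072-17774101, minus strand, from 106 or 47 bases before a pair of annotated starts: ttgtgtcctctcCACGTGgcctggggattc

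In BAX, 3 of the 4 copies are preceded by t and followed by ac, and the copy 45 bases before the start is preceded by c and followed by aa. The copies 45 and 14 bases before the RefSeq start lie within the extent that GENCODE 29 gives BAX, which begins at 48954815. The BID copy lies within the extent of BID as well, which begins at 17774770 on the minus strand. Windows of other annotated starts of BID held no copy. A match is a description of the letters and was not tested as a binding site here. The 3 genes that hold the E-box differed in their response: with DOX, BAX was higher and BBC3 lower, and BID did not pass the test, as given below.

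Changes are given as the log2 fold change of DOX-treated over untreated cells (log2FC) from edgeR's quasi-likelihood test, fitted on all 15222 genes that exceeded 1 CPM in 4 or more of the 8 libraries. P-values were adjusted over those genes by Benjamini-Hochberg, and a gene was called at an adjusted p below 0.05. CPM were scaled by edgeR's TMM factors. All 10 members passed the filter. With DOX, 5 rose (MCL1, BAX, BCL2L11, PMAIP1 and BAD), 4 fell (BCL2, BCL2L1, BAK1 and BBC3), and BID was not called. Over all genes tested, 38.5% were called higher and 38.1% lower, so 5 and 4 of 10 members called lie near the background of the whole table. Their median log2FC was 0.21, against 0.01 over all genes tested. None of the members passed the stricter thresholds of the study's methods (FDR below 0.001 and an absolute log2FC above 2), which 4.38% of all genes passed upward and 2.75% downward. The study's results text gives a looser FDR with the same log2FC, which no member reached. For 4 of the members the DOX libraries all lay above the untreated libraries (MCL1, BAX, BCL2L11 and PMAIP1), which held for 36.2% of all genes, and for 4 they all lay below (BCL2, BCL2L1, BAK1 and BBC3), which held for 35.5%. Bulk RNA was measured, so fewer cells of a kind and less RNA per cell cannot be told apart.

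**Figure D1:**
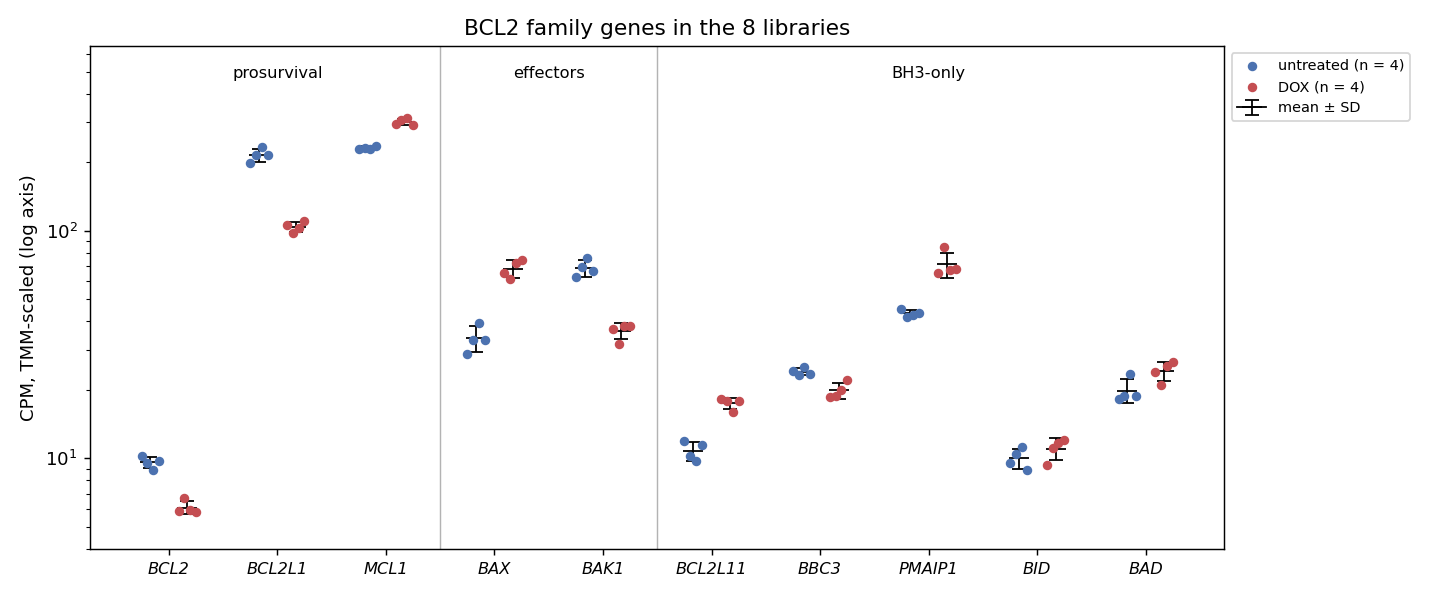
Expression of the 10 BCL2 family genes in each of the 8 libraries, as TMM-scaled CPM on a log axis, by role. Points are libraries (4 untreated, 4 DOX), and bars are the mean ± SD of each group. Within the prosurvival and effector classes genes moved in opposite directions (MCL1 up against BCL2 and BCL2L1 down, BAX up against BAK1 down), and the groups overlap only for BID and BAD.

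BCL2L1 had the largest log2FC of the members in size, with an interval that overlaps that of BAK1, while BAX rose by nearly as much. It encodes BCL-XL, and a shorter splice product that promotes death, which counts per gene do not separate. BCL2L1 (ENSG00000171552.13, chr20:31664452-31723989, minus strand) stood at 198, 215, 234 and 215 CPM in the untreated replicates 1 to 4 and at 106, 98.1, 103 and 110.2 CPM in the DOX replicates. The groups lie far apart, with the lowest untreated library at 198 CPM and the highest DOX library at 110.2 CPM. The means were 215 ± 14.8 CPM (SD, n = 4) and 104 ± 5.07 CPM (SD, n = 4), a 2.06-fold fall, with a log2FC of -1.04 (SE 0.06, 95% interval -1.17 to -0.92, edgeR adjusted p = 1.44e-08). Of all genes tested, 19.7% had a larger absolute log2FC. The antisense gene ABALON shares 1424 exonic bases with BCL2L1, stood at 4.39 ± 0.527 and 2.49 ± 0.443 CPM (SD, n = 4) and fell by 0.82 on the log2 scale (edgeR adjusted p = 0.000199). The library kit was stranded, but whether the counting used strand is not given in the sources used here, so the part of ABALON reads in the values of BCL2L1 was not tested. RSEM can divide reads between genes, and counts that are not whole numbers were present in all 8 libraries for BCL2L1, BCL2L11 and BAD and in 6 for BAK1.

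BCL2, the founding member of the family, fell as well. BCL2 (ENSG00000171791.13, chr18:63123346-63320128, minus strand) stood at 10.2, 9.56, 8.89 and 9.77 CPM in untreated and at 5.9, 6.69, 5.93 and 5.82 CPM in DOX-treated cells, from 265 to 500 counts per library. Every DOX library lay below every untreated library, and DOX replicate 2 was the highest of its group. The means were 9.6 ± 0.541 and 6.08 ± 0.404 CPM (SD, n = 4), with a log2FC of -0.66 (SE 0.07, 95% interval -0.82 to -0.5, edgeR adjusted p = 6.72e-06).

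MCL1, a short-lived protein that many tumours depend on, rose instead. MCL1 (ENSG00000143384.13, chr1:150574551-150579738, minus strand) stood at 229, 231, 228 and 237 CPM in untreated and at 296, 307, 312 and 293 CPM in DOX-treated cells. The change was modest and the libraries agreed closely, with a spread of 1.85% of the mean in the untreated and 3.06% in the DOX group. Means of 231 ± 4.27 and 302 ± 9.25 CPM (SD, n = 4) gave a 1.31-fold rise, with a log2FC of 0.39 (SE 0.04, 95% interval 0.29 to 0.48, edgeR adjusted p = 4.65e-06), and 54.5% of all genes tested had a larger absolute log2FC. Summed in CPM, the 3 prosurvival genes went from 456 ± 14.3 to 412 ± 6.34 CPM (SD, n = 4). The sum lay between 437 and 471 CPM in untreated and between 407 and 421 CPM in DOX libraries. It is not scaled by length, so longer transcripts weigh more in it.

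The effectors BAX and BAK1, which can stand in for each other in pore formation, moved in opposite directions by a similar amount. BAX (ENSG00000087088.20, chr19:48954815-48961798, plus strand), whose E-boxes are shown above, stood at 28.8, 33.1, 39.5 and 33.3 CPM in untreated and at 65.0, 61.4, 72.4 and 74.2 CPM in DOX-treated cells. Untreated replicate 3 was the highest of its group and still lay well below the lowest DOX library. The means of 33.6 ± 4.39 and 68.2 ± 6.07 CPM (SD, n = 4) gave a 2.03-fold rise, with a log2FC of 1.02 (SE 0.09, 95% interval 0.82 to 1.22, edgeR adjusted p = 9.27e-07), and without untreated replicate 3 the log2FC was 1.10.

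BAK1 (ENSG00000030110.13, chr6:33572547-33580293, minus strand) stood at 62.6, 69.2, 76.0 and 66.5 CPM in untreated and at 37.0, 31.9, 38.2 and 38.2 CPM in DOX-treated cells. The lowest untreated library was far above the highest DOX library. The means of 68.6 ± 5.64 and 36.3 ± 3.03 CPM (SD, n = 4) gave a 1.89-fold fall, with a log2FC of -0.92 (SE 0.07, 95% interval -1.08 to -0.75, edgeR adjusted p = 3.33e-07). Summed in CPM, BAX and BAK1 stood at 102 ± 9.97 CPM (SD, n = 4) in untreated and 105 ± 8.8 CPM (SD, n = 4) in DOX-treated cells, and the ranges of 91.4 to 115 and 93.2 to 112 CPM overlapped. Like the prosurvival sum, this total is not scaled by length, and the weights of BAX and BAK1 would change with the length used. It does not show that effector RNA per kilobase stayed level. GGNBP1, which shares 91 exonic bases with BAK1 on the other strand, averaged 0.926 CPM or less in both groups.

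Of the BH3-only genes, BCL2L11 and PMAIP1 rose most. BCL2L11 encodes BIM, which binds all the prosurvival proteins and can act on BAX and BAK1 directly. BCL2L11 (ENSG00000153094.23, chr2:111119378-111168447, plus strand) stood at 11.9, 10.2, 9.71 and 11.5 CPM in untreated and at 18.3, 17.9, 16.0 and 17.8 CPM in DOX-treated cells, without overlap. The means of 10.8 ± 1.02 and 17.5 ± 1.02 CPM (SD, n = 4) gave a 1.62-fold rise, with a log2FC of 0.70 (SE 0.07, 95% interval 0.53 to 0.86, edgeR adjusted p = 4.55e-06). MIR4435-2HG, a noncoding gene on the other strand that shares 727 exonic bases with BCL2L11, stood at 0.281 and 0.617 CPM.

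PMAIP1 encodes NOXA, which binds MCL1 and promotes its breakdown. PMAIP1 (ENSG00000141682.11, chr18:59899948-59904306, plus strand) stood at 45.5, 42.0, 42.9 and 43.6 CPM in untreated and at 65.1, 84.6, 67.1 and 68.2 CPM in DOX-treated cells. All DOX libraries lay above all untreated libraries, and DOX replicate 2 was well above the other DOX libraries. The means of 43.5 ± 1.46 and 71.2 ± 8.98 CPM (SD, n = 4) gave a 1.64-fold rise, with a log2FC of 0.71 (SE 0.08, 95% interval 0.54 to 0.88, edgeR adjusted p = 4.99e-06), and the log2FC lay between 0.62 and 0.75 when each library was left out in turn.

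BBC3 encodes PUMA, a BH3-only protein that binds all the prosurvival proteins, and it fell slightly. BBC3 (ENSG00000105327.17, chr19:47220822-47232766, minus strand) stood at 24.2, 23.3, 25.1 and 23.6 CPM in untreated and at 18.7, 18.8, 20.02 and 22.2 CPM in DOX-treated cells. The groups did not overlap, although DOX replicate 4 came close to untreated replicate 2. The means of 24.0 ± 0.815 and 19.9 ± 1.63 CPM (SD, n = 4) gave a log2FC of -0.27 (SE 0.06, 95% interval -0.40 to -0.13, edgeR adjusted p = 0.00175), and with scaling to library size only it was -0.14 (edgeR adjusted p = 0.0417).

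BAD, which phosphorylation holds away from BCL-XL, rose little. BAD (ENSG00000002330.13, chr11:64269830-64284704, minus strand) stood at 18.3, 18.9, 23.4 and 18.8 CPM in untreated and at 23.9, 21.1, 25.6 and 26.4 CPM in DOX-treated cells. Untreated replicate 3 lay above DOX replicate 2, so the groups overlapped. The means of 19.8 ± 2.4 and 24.2 ± 2.36 CPM (SD, n = 4) gave a log2FC of 0.29 (SE 0.09, 95% interval 0.09 to 0.49, edgeR adjusted p = 0.0119), and without untreated replicate 3 the log2FC was 0.38 (edgeR adjusted p = 0.000213). GPR137 shares 404 exonic bases with BAD on the other strand and stood at 18.4 ± 1.23 and 20.3 ± 1.45 CPM (SD, n = 4), with a log2FC of 0.15 (edgeR adjusted p = 0.0632).

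BID, which caspase-8 cleaves to link death receptors to mitochondria, did not pass the test. BID (ENSG00000015475.18, chr22:17734138-17774770, minus strand) stood at 9.51, 10.5, 11.2 and 8.88 CPM in untreated and at 9.32, 11.1, 11.7 and 12.1 CPM in DOX-treated cells, and the groups overlapped. The means of 10.02 ± 1.02 and 11.1 ± 1.23 CPM (SD, n = 4) gave a log2FC of 0.14, with a 95% interval of -0.07 to 0.35 that includes no change (edgeR adjusted p = 0.202). The log2FC of BID ran from 0.08 (without untreated replicate 4, edgeR adjusted p = 0.497) to 0.27 over the alternatives, and it passed the threshold in 2 of them, without DOX replicate 1 (log2FC 0.22, edgeR adjusted p = 0.0478) and with library size only (0.27, edgeR adjusted p = 0.0197). Summed in CPM, the 5 BH3-only genes went from 108 ± 3.31 CPM (105 to 112 CPM) to 144 ± 7.86 CPM (135 to 153 CPM; SD, n = 4). This sum is not scaled by length either, and it covers only the BH3-only genes among the 10 members. BMF and HRK, BH3-only genes outside the 10, are not in it and fell. BMF went from 211 to 37.1 CPM and HRK from 7.57 to 4.43 CPM, so the sum does not give the direction of BH3-only RNA as a whole.

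**Figure D2:**
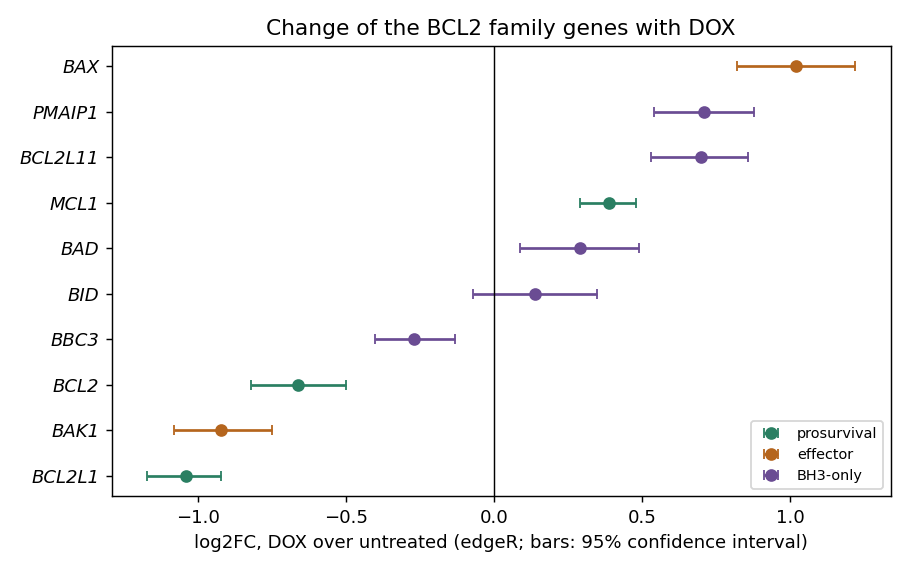
The log2FC of DOX-treated over untreated cells for each of the 10 genes, with 95% confidence intervals from edgeR (4 libraries per group), coloured by role. BAX (1.02) and BCL2L1 (-1.04) stand at the ends, each role holds genes on both sides of 0, and the interval of BID includes 0.

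Levels of different genes were compared per kilobase of exonic length, as CPM per kb. In untreated cells BCL2L1 stood highest at 65.0 CPM per kb, followed by MCL1 (52.9 CPM per kb), BAK1 (31.0 CPM per kb) and PMAIP1 (19.5 CPM per kb). Then came BAX and BAD at 13.0 and 11.6 CPM per kb, whose libraries overlapped, BBC3 at 7.56, BID at 2.25, BCL2L11 at 1.62 and BCL2 at 0.816 CPM per kb. With DOX the order changed at the top. MCL1 stood highest at 69.1 CPM per kb, PMAIP1 (31.9 CPM per kb) and BCL2L1 (31.5 CPM per kb) overlapped, and BAX at 26.4 CPM per kb lay above BAK1 at 16.4 CPM per kb, which overlapped with BAD at 14.2 CPM per kb. Below them were BBC3 at 6.27 CPM per kb, BCL2L11 and BID at 2.63 and 2.49 CPM per kb, which overlapped, and BCL2 at 0.517 CPM per kb. The places of BAX and BCL2L11, among others, depend on the length used. Over the longest principal transcript in place of all exonic bases, BAX stood at 42.4 and BAK1 at 32.1 CPM per kb in untreated cells. With DOX, BAX then stood at 86.1 CPM per kb, above BCL2L1 at 40.0 and PMAIP1 at 36.6 CPM per kb. Over this length BCL2L11 stood at 7.09 CPM per kb in untreated cells and at 11.5 CPM per kb with DOX. The values for BBC3 were 13.1 and 10.8 CPM per kb, so BCL2L11 then lay above BBC3 with DOX. No such length was used for MCL1, BCL2 and BID.

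Ratios between genes whose proteins bind or oppose each other were computed within each library, so that scaling between libraries cancels, and are given without a test. Only 6 pairs were computed, and others that oppose each other, such as BCL2L1 to BAX (log2FC -1.04 and 1.02), were not. Among the 6, the largest shift was that of BCL2 to BAX. This ratio was 0.354, 0.289, 0.225 and 0.294 in untreated and 0.0907, 0.109, 0.0819 and 0.0784 in DOX-treated libraries. The DOX ratios all lay below the untreated ratios, and the mean log2 ratio differed by -1.68, or 3.21-fold. BCL2 to BCL2L11 went from between 0.853 and 0.94 to between 0.322 and 0.373, a log2 difference of -1.36, and the log2 ratio of BCL2L1 to BAD went from between 3.32 and 3.52 to between 2.01 and 2.22, a difference of -1.33.

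The remaining pairs shifted in the other direction or by less. MCL1 to BAK1, a pair that forms complexes in healthy cells, rose from between 3.0 and 3.66 to between 7.66 and 9.64, a log2 difference of 1.30. MCL1 to PMAIP1 went from between 5.04 and 5.49 to between 3.63 and 4.65, a log2 difference of -0.32. BCL2L1 and BAK1 fell almost in parallel: their ratio was 3.08 to 3.23 in untreated and 2.71 to 3.08 in DOX libraries, a log2 difference of -0.13, with the nearest libraries of the groups equal to 3 digits. When each library was left out in turn, the difference lay between -1.80 and -1.58 for BCL2 to BAX and between 1.23 and 1.34 for MCL1 to BAK1.

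**Figure D3:**
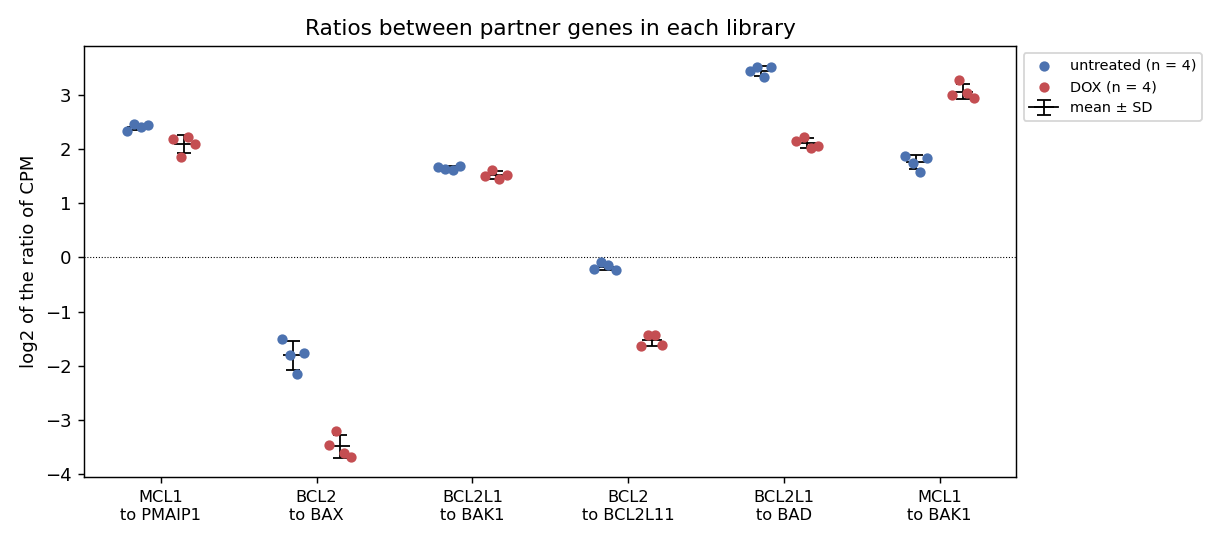
The log2 ratio of CPM between 6 pairs of members in each library, with the mean ± SD of the 4 untreated and 4 DOX libraries. BCL2 to BAX, BCL2 to BCL2L11 and BCL2L1 to BAD lie lower with DOX (by 1.33 or more on the log2 scale), and MCL1 to BAK1 lies higher. MCL1 to PMAIP1 shifted by -0.32 and BCL2L1 to BAK1 by -0.13.

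The 10 genes were set beside 76 other genes of the apoptosis pathway in 8 lists, of which 65 passed the filter. Of these 65, 25 rose (38.5%), 24 fell (36.9%) and 16 were not called, with a median log2FC of 0.01. Of the 65, 42 did not overlap between the groups. BIRC3, which passed the filter only through the DOX libraries, is counted in the 25 and in the 42. Over all genes tested, 38.5% were called higher and 38.1% lower, and 36.2% lay without overlap above and 35.5% below, as given above. The counts of each list below are to be read beside these shares. With scaling to library size only, 34 of the 65 were higher and 18 lower.

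The widest change among the other proapoptotic family genes was that of BMF, a BH3-only gene whose product is held at the cytoskeleton by dynein light chain. BMF (ENSG00000104081.14) stood at 209.0, 211, 209.6 and 213 CPM in untreated and at 36.3, 37.8, 35.6 and 38.8 CPM in DOX-treated cells. The 4 libraries of each group were nearly equal, and the groups lie far apart. The means of 211 ± 2.01 and 37.1 ± 1.43 CPM (SD, n = 4) gave a 5.67-fold fall, with a log2FC of -2.50 (SE 0.05, edgeR adjusted p = 1.17e-12), past the study's thresholds. Of the 10 genes listed there, 7 were tested, 5 fell and 1 rose, with a median log2FC of -0.38. HRK, a neuronal BH3-only gene, fell by 0.78 on the log2 scale (7.57 ± 0.766 to 4.43 ± 1.08 CPM; SD, n = 4), and BNIP3L, a mitophagy receptor, fell by 0.48 (153 ± 2.82 to 109 ± 5.43 CPM). Of 4 other prosurvival genes 2 were tested: BCL2L2, which encodes BCL-W, rose (45.5 ± 2.82 to 60.6 ± 1.73 CPM; log2FC 0.41), and BCL2L12 fell (13.1 ± 0.62 to 10.8 ± 0.798 CPM; log2FC -0.27).

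Downstream of the pores, CYCS, which encodes cytochrome c, rose from 55.6 ± 4.01 to 118 ± 6.72 CPM (SD, n = 4; log2FC 1.09, SE 0.06, edgeR adjusted p = 1.42e-08). DIABLO, whose product releases caspases from their inhibitors, fell from 66.8 ± 3.76 to 43.0 ± 1.09 CPM (log2FC -0.63), and ENDOG, a mitochondrial nuclease, fell from 6.79 ± 0.528 to 5.38 ± 0.663 CPM (log2FC -0.33). Of the 9 genes of mitochondrial release and the apoptosome, 2 rose, 2 fell and 5 were not called, with a median log2FC of 0.01. All 9 caspase and nuclease genes were called, 5 higher and 4 lower, with a median of 0.14. Of all genes tested, 38.5% were called higher and 38.1% lower. The death receptor caspases fell, CASP8 from 22.7 ± 1.4 to 10.8 ± 0.692 CPM (log2FC -1.07, SE 0.06, edgeR adjusted p = 2.85e-08) and CASP10 from 3.09 ± 0.405 to 1.56 ± 0.0168 CPM (log2FC -0.98). DFFA, the inhibitor and chaperone of the caspase-activated nuclease, rose from 117 ± 2.66 to 208 ± 1.26 CPM (log2FC 0.83).

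The inhibitors of apoptosis proteins were split. BIRC5, which encodes survivin, a mitotic protein as well, fell from 157 ± 17.7 to 43.8 ± 3.03 CPM (SD, n = 4; log2FC -1.84, SE 0.08, edgeR adjusted p = 1.9e-09). BIRC2, which encodes a ubiquitin ligase of the NF-κB pathway, rose from 34.4 ± 1.26 to 74.6 ± 3.48 CPM (log2FC 1.12). Its relative BIRC3 exceeded 1 CPM only in the DOX libraries and so passed the filter only through the group where it was higher. BIRC3 stood at 0.611, 0.637, 0.365 and 0.514 CPM in untreated and at 2.44, 2.49, 2.09 and 1.76 CPM in DOX-treated cells, with a log2FC of 2.03. That value is past the study's log2FC of 2, but it was 1.88 without untreated replicate 3, 1.98 without DOX replicate 1 and 1.97 without DOX replicate 2. Of the 6 tested, 2 were called higher (BIRC3 included), 1 fell and 3 were not called, with a median of 0.2. In the death receptor pathway 8 of 12 genes were tested, and 4 rose and 2 fell, with a median of 0.45. The receptor genes FAS (2.36 ± 0.0928 to 6.21 ± 0.552 CPM; log2FC 1.39) and TNFRSF10B (139 ± 7.56 to 321 ± 12.0 CPM; log2FC 1.21) rose, as did RIPK1, a kinase of the receptor complexes (14.1 ± 0.437 to 21.6 ± 0.954 CPM; log2FC 0.61).

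Among 12 tested genes that govern turnover or sequestration of the family's proteins, 5 rose, 4 fell and 3 were not called, with a median log2FC of -0.01. FBXW7, a ubiquitin ligase subunit that targets MCL1 and MYC, rose from 25.6 ± 1.6 to 51.4 ± 0.316 CPM (SD, n = 4; log2FC 1.01, SE 0.05, edgeR adjusted p = 5.36e-09). USP13, a deubiquitinase that stabilises MCL1, fell from 78.6 ± 7.21 to 61.3 ± 3.07 CPM (log2FC -0.36). DYNLL2, the light chain that holds BMF, fell from 194 ± 9.96 to 129.8 ± 2.09 CPM (log2FC -0.58).

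Of 12 transcription factors known to act on the members, 5 rose, 5 fell and 2 were not called, with a median log2FC of 0.11. TP73 fell from 26.8 ± 0.831 to 4.95 ± 0.526 CPM (SD, n = 4; log2FC -2.43, SE 0.07, edgeR adjusted p = 6.67e-11), past the study's thresholds, and E2F1 fell from 54.4 ± 4.79 to 14.8 ± 1.25 CPM (log2FC -1.87). NFKB1 rose from 15.6 ± 0.39 to 47.0 ± 1.44 CPM (log2FC 1.59).

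**Figure D4:**
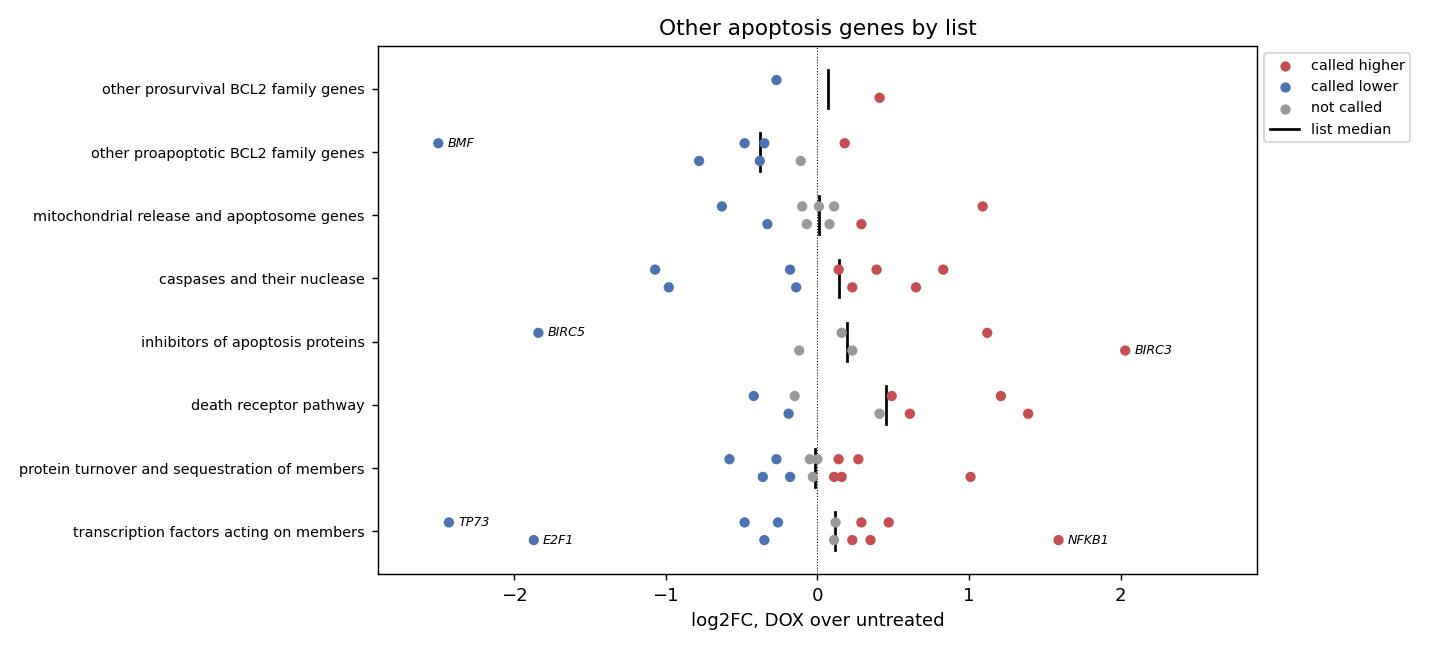
The log2FC of DOX-treated over untreated cells for the 65 other apoptosis genes tested, by list, with 1 point per gene coloured by its call and a bar at each list's median. Genes beyond an absolute log2FC of 1.5 are named, from BMF at -2.50 to BIRC3 at 2.03. BIRC3 passed the filter only through the DOX libraries, where it was higher. The medians run from -0.38 in the other proapoptotic family genes to 0.45 in the death receptor pathway.

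MYC, from which the transgene derives, stood at 937 ± 75.6 CPM in untreated and at 1120 ± 56.6 CPM in DOX-treated cells (SD, n = 4), with a log2FC of 0.26 (SE 0.06, edgeR adjusted p = 0.00237) and overlapping groups. Counts per gene do not separate reads of the OMOMYC transgene from endogenous MYC, so this value does not check the induction.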

How the data were processed

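RNA of D283-OMO cells (4 untreated and 4 DOX-treated libraries) had been sequenced as pairs from a stranded polyA+ kit. Per the authors, trimming was done by Trim Galore, alignment by STAR against GENCODE 32 (GRCh38) and quantification per gene by RSEM. They deposited expected counts per gene, not normalized, with reads that match several genes divided among them. Whether the counting used strand is not given in the sources used here.

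Groups were taken from the labels. Expected counts were rounded and tested with edgeR 4.0.16 in R 4.3.3 (TMM, quasi-likelihood test, no covariates, Benjamini-Hochberg adjustment over 15222 genes that exceeded 1 CPM in 4 or more libraries). Standard errors are the absolute log2FC over the square root of F. Names and coordinates came from GENCODE 29, which named 58561 of 60668 genes, and promoters from RefSeq. Tables were made with Python 3.11.15 and pandas 2.3.3, and the scripts were tested on simulated data. Replicates differed by more than sampling noise, and no library was counted as a copy of another.

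Named were all 10 members, MYC and, of each other list, the 3 called genes with the largest absolute log2FC and those past the study's thresholds. Members and lists were chosen with earlier results of these data known. Alternatives were DESeq2's size factors, library size only, the Wald test of DESeq2 1.42.0, other filters, a replicate block and leaving out each library. A list and a gene drawn up with the others are not reported here.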

Additional observations from a re-analysis of the deposited data

Results flagged for a closer look

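In 78 groups of 4 libraries, covering the 10 members, the named genes of the other lists and the 6 ratios between members, the sample farthest out was compared with the rest by Dixon's ratio. In 7 groups it exceeded its 95% critical value, where chance gives about 3.9. Among the members, BCL2 in DOX replicate 2 stood at 6.69 CPM against 5.82 to 5.93 CPM in the other DOX libraries, and PMAIP1 in the same library at 84.6 CPM against 65.1 to 68.2 CPM. BAD in untreated replicate 3, the library that stands apart in its counts, stood at 23.4 CPM against 18.3 to 18.9 CPM. Of the other genes, CYCS in untreated replicate 3 stood at 61.6 CPM against 53.1 to 53.8 CPM, and FAS in untreated replicate 2 at 2.5 CPM against 2.3 to 2.33 CPM. In DOX replicate 2, the shallowest library with 38390696 counts, CASP8 stood at 11.8 CPM against 10.3 to 10.5 CPM and E2F1 at 13.0 CPM against 15.2 to 15.6 CPM. The part of depth in these values was not tested.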

How the results depend on the processing

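For the members, 148 values recomputed under an alternative kept the direction and the side of the threshold, and BID passed it in 2, as given above. No result reversed. Scaling to library size only moved the median log2FC of all genes from 0.01 to 0.14 and the split of calls from 5868 higher and 5793 lower to 7157 and 4715, with 6 members higher and 4 lower, and under it BCL2L12 (log2FC -0.15, edgeR adjusted p = 0.0537) and ENDOG (-0.21, edgeR adjusted p = 0.0684) missed the threshold. At the study's thresholds, 666 genes were higher and 418 lower, against 313 and 249 when 1 CPM had to be exceeded in over 4 libraries and 1328 and 769 with no filter, and filterByExpr gave 1043 higher, as other genes were tested. Leaving out each library in turn gave 5 to 6 members higher and 4 lower, 5575 to 6036 genes higher and 5549 to 6004 lower in all, and 21 to 29 higher and 22 to 26 lower in the other lists. With the replicate number as a block, 5 members were higher and 4 lower, as without it, with 5962 genes higher and 5843 lower in all, 25 and 23 in the other lists, and 667 and 418 at the study's thresholds. Same-numbered libraries deviated together with r of 0.157, 0.144, 0.241 and -0.176, so the numbers were not taken to pair the samples, and not every library correlated best with its own number. Genes that did not exceed 1 CPM in 4 libraries, such as BCL2A1, were not tested in the values above.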
